A study of Mus musculus with 6 samples.

Results

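The genes described here encode 49 subunits of 3 chromatin-regulating complexes of mouse cells: 17 of the BAF chromatin remodellers, 21 of the Polycomb repressive complexes and 11 of the nucleosome remodelling and deacetylase complex (NuRD). They were taken from a list of subunit names, by no measured value but with earlier results of these data known. An accessible interval was counted as belonging to one of them by its midpoint. The protein-coding gene end nearest to the midpoint, within 100 kb, had to be an end of that gene in RefSeq (mouse build mm10). By this rule the 49 genes, of 21883 protein-coding genes, held 356, 335 and 248 intervals in the 2iL, 48 h and 96 h lists, out of 81054, 78996 and 68473 intervals near any protein-coding gene and 91228, 88810 and 78055 in the whole lists. BAF genes held 119, 114 and 83 of these, Polycomb genes 157, 152 and 120, and NuRD genes 80, 69 and 45.

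The assay was ATAC-seq, which uses a transposase to cut and tag DNA that is not wrapped tightly in chromatin, and the cells were E14, a line of embryonic stem cells taken from a mouse blastocyst. The 3 groups were cells kept in N2B27 medium with 2iL (CHIR99021, which blocks GSK3, PD0325901, which blocks MEK, and LIF, which together hold the cells in naive pluripotency), and cells collected 48 h and 96 h after 2iL was taken away and plain N2B27 put in its place. Each group had 2 samples, A and B, of the same line with no genetic change named, and nothing in the labels says whether they came from separate cultures. The deposited peak lists hold 1 list per group and no value per sample, so the spread between A and B is not known, no difference between conditions could be tested, and all values below describe these 3 lists. The comparison asks which accessible sites near these genes were no longer listed, or newly listed, after 48 h and 96 h without 2iL.

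The lists differed in size, with 187330, 185562 and 166089 peak summits and 66.8, 64.5 and 55.6 Mb covered in 2iL, 48 h and 96 h, and the 96 h list was the shortest. A shorter list holds fewer intervals near genes, so shares and counts for the sets of subunit genes are set beside those over all genes. The naive pluripotency genes Klf4 and Tfcp2l1 had 15, 7 and 7 and 16, 6 and 7 intervals in the 3 lists. Nanog had 9, 6 and 6 and Esrrb 29, 28 and 17. Pou5f1 had 5 in each and Sox2 had 21, 26 and 17. Fgf5, which marks cells leaving the naive state, had 2, 6 and 4, Otx2 8, 13 and 13 and Dnmt3b 9, 12 and 10. The neural gene Sox1 had 16, 15 and 14. None of these markers was without an accessible interval in any list.

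BAF complexes use the energy of ATP, through the alternative motors SMARCA4 (BRG1) and SMARCA2 (BRM), to slide or evict nucleosomes and open DNA. Polycomb proteins act in 2 machines: PRC2, whose EZH2 or EZH1 subunit methylates histone H3 at lysine 27 with EED and SUZ12, and PRC1, whose RING1 or RNF2 subunit ubiquitinates histone H2A with a PCGF partner, and whose CBX subunits read the mark left by PRC2. NuRD joins a CHD3 or CHD4 motor to the histone deacetylases HDAC1 and HDAC2 through MTA, MBD and GATAD2 subunits. In embryonic stem cells BAF and NuRD adjust the activity of pluripotency enhancers, and Polycomb keeps developmental regulators silent until the cells differentiate.

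Promoter sequences were at hand for 40 of the 49 genes, as 52 RefSeq windows of GRCm38.p6 that run from 250 bases before to 50 bases after an annotated start. The windows of the subunit genes were rich in CpG dinucleotides, with a median of 26.5 and a GC content of 64.3%, against 13.0 and 56.3% over all 21262 windows. A set of 4 shows the range of outcomes in the 3 lists and is printed 5′ to 3′ in the direction of the gene, with every CpG in capitals. The first is the upstream start of Mtf2, which encodes a PRC2 accessory protein, and the second is an internal start of the same gene. The third is the start of the NuRD scaffold gene Mta1, and the fourth an internal start of the BAF core gene Smarcd3, read on the minus strand.
Mtf2 upstream start, chr5:108065424-108065723, plus strand: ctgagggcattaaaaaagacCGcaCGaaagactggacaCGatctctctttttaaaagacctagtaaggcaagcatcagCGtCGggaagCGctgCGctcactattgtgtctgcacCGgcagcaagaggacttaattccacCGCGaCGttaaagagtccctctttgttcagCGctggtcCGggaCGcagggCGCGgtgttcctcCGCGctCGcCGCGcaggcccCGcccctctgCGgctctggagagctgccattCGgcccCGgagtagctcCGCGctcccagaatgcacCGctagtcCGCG
Mtf2 internal start, chr5:108077915-108078214, plus strand: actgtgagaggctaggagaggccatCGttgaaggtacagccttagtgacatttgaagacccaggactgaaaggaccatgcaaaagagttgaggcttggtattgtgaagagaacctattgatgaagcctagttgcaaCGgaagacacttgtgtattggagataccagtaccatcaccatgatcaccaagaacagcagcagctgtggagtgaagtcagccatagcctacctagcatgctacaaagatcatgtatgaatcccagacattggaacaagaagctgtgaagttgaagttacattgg
Mta1 start, chr12:113098028-113098327, plus strand: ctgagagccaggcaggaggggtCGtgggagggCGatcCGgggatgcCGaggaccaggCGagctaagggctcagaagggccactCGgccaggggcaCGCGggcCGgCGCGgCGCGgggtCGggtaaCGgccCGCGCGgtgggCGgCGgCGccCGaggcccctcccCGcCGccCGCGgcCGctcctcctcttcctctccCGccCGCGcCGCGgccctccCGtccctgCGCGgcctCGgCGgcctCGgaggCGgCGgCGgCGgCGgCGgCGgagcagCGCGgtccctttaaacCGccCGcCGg
Smarcd3 start, chr5:24601953-24602252, minus strand: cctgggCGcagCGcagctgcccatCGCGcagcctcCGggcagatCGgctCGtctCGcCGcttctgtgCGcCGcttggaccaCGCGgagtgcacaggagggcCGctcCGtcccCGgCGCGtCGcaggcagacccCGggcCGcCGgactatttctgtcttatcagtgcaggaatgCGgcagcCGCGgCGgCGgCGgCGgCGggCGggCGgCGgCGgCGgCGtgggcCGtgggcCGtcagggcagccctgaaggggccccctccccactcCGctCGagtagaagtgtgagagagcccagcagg

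The upstream Mtf2 window, with 30 CpG, lay wholly inside an interval in all 3 lists, with fold enrichments of 13.9 in 2iL, 17.4 at 48 h and 18.6 at 96 h. Fold enrichment is the authors' value for the strongest summit of an interval over background. Where the folds of a site in several lists are given side by side they are the authors' values from lists made separately, and no change between lists is read from them. The internal Mtf2 window, with 2 CpG, shared 177 bases with a 2iL interval of fold 8.36 and 8 bases with a 48 h interval of fold 5.41, and no 96 h interval reached it. The Mta1 window, with 50 CpG, was under no interval in 2iL, under an interval of 223 bp and fold 3.33 at 48 h, and under one of 820 bp and fold 7.96 at 96 h. The Smarcd3 window, with 40 CpG, lay in an interval of fold 5.42 in 2iL, in none at 48 h and in one of fold 2.32 at 96 h. That window lies inside the gene. The upper end of Smarcd3, where the gene begins on the minus strand, had an interval within 1 kb in all 3 lists. A CpG-rich window was thus not always under an interval.

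Of the 52 windows, 44 overlapped an interval in all 3 lists. At most 4 CpG were held by 6 windows: 1 each of Smarcd2, Mtf2, Phc2 and Scmh1, and 2 of Aebp2. None of these 6 was listed in all 3, and 4 were listed in none. The other 46 windows held over 4 CpG, and 44 of them, or 95.7%, were listed in all 3, the exceptions being those of Mta1 and Smarcd3. Over all genes the same split gave 6.31% of 6035 windows with at most 4 CpG and 80.9% of 15227 windows with more. The limit of 4 CpG was chosen after the values were seen.

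**Figure D1:**
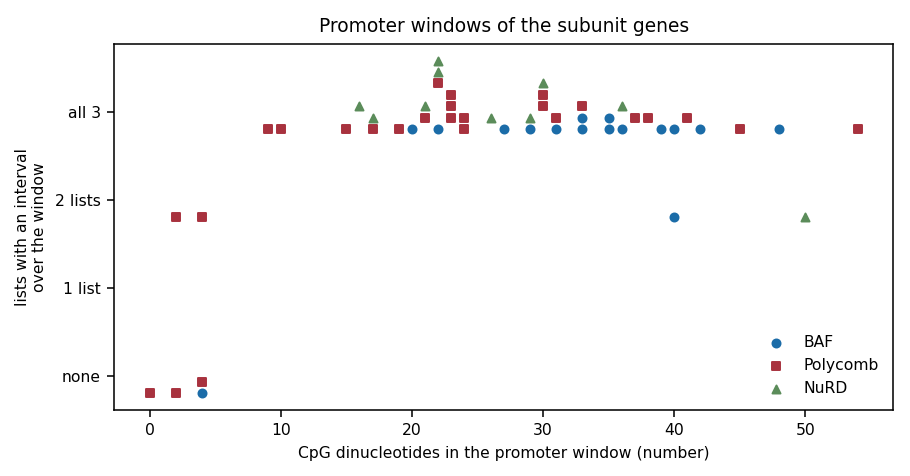
Number of peak lists with an interval over each of the 52 promoter windows of the subunit genes (vertical axis, points set apart so that they do not hide each other) against the number of CpG dinucleotides in the window (horizontal axis), by complex. Windows with at most 4 CpG sit at none or 2 lists, and 44 of the 46 others at all 3.

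At the level of genes, the starts of these subunits stayed accessible. An interval overlapped a promoter window of 38, 38 and 39 of 40 genes in the 3 lists in turn, whereas over all genes 64.0%, 66.4% and 65.4% had one. Counting any interval within 1 kb of either gene end, which can be done for all members, gave 47, 48 and 49 of the 49 genes, against 67.6%, 69.7% and 68.0% of all genes. Chd3, a NuRD motor gene, had such an interval only at 96 h, with fold 2.72, and Mta1 had one from 48 h on. The single window of Smarcd2, a BAF core gene on the minus strand, lies inside the gene and was never listed. The upper end, where the gene begins, had an interval within 1 kb in all 3 lists. The intervals over the windows of Brd9, Cbx7 and Smarcd3 had their midpoint nearest to an end of another gene, so they are not among the intervals counted for these genes. For each gene and list the strongest interval over any of its windows was taken. The median fold of these was 10.7, 9.71 and 11.1 and the median width 1274, 1281 and 1287 bp in 2iL, 48 h and 96 h.

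The windows were searched on both strands for motifs of promoter-binding factors: the ETS motif CCGGAAG, the NRF1 core CGCATGCG, the CCAAT box CCAAT, the YY1 motif AAGATGGCG, the E-box CACGTG and the SP/KLF motif GGGGCGGGG. The letters of the last were in 17 of the 52 windows, or 32.7%, against 15.4% of all windows, and those of the CCAAT box in 18, or 34.6%, against 38.2%. The others were found in 7 (ETS, 13.5% against 11.6%), 3 (NRF1 core, 5.77% against 2.52%), 3 (YY1, 5.77% against 1.83%) and 6 windows (E-box, 11.5% against 7.84%). Between the complexes the CCAAT box was in 1 of 16 BAF, 11 of 26 Polycomb and 6 of 10 NuRD windows, and the ETS motif in 4, 1 and 2. Windows of 1 gene can overlap and then share a match, and CpG-rich windows hold GC-rich letters more often, so these shares are descriptions. A pair of windows with several matches is printed with the matched letters in capitals. The window of Smarcc1, a BAF core gene, holds 2 ETS matches and 1 NRF1 core, and that of the upstream start of the NuRD gene Gatad2b holds 5 CCAAT boxes, read on either strand. Both lay in intervals of high fold in every list: 14.4, 16.6 and 18.4 at Smarcc1 and 18.9, 18.8 and 17.9 at Gatad2b.
Smarcc1 start, chr9:110131774-110132073, plus strand: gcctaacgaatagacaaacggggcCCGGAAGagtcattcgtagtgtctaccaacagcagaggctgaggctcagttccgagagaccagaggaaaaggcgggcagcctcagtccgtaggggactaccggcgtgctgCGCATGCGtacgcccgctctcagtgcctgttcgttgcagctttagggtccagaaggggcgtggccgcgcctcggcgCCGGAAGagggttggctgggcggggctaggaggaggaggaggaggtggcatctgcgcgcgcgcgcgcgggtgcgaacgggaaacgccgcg
Gatad2b upstream start, chr3:90292931-90293230, plus strand: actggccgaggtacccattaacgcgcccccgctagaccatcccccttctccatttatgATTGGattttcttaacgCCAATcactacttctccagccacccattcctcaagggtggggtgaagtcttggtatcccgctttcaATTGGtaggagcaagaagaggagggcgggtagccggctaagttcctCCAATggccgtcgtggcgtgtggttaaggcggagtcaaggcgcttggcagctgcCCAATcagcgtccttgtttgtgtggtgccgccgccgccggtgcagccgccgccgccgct

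Fewer intervals were listed at 96 h than in 2iL at more than 50% of the subunit genes. From 2iL to 96 h, 28 of the 49 genes had fewer intervals, 7 had more and 14 had the same number. Over the 18290 genes with an interval in any list, 45.3% had fewer and 25.1% more, and the subunit genes stood at 57.1% and 14.3%. The median number in 2iL was 5 at the subunit genes and 3 over the 18290 genes, and these shares were not adjusted for that. In all, 69.7% of the 2iL number of intervals was listed at 96 h at the subunit genes and 84.5% at all genes. In the full lists most of the difference lay between 48 h and 96 h, when 32 genes had fewer and 6 more (all genes, 43.6% and 18.0%). Between 2iL and 48 h, 20 had fewer and 15 more (all genes, 33.9% and 33.6%).

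**Figure D2:**
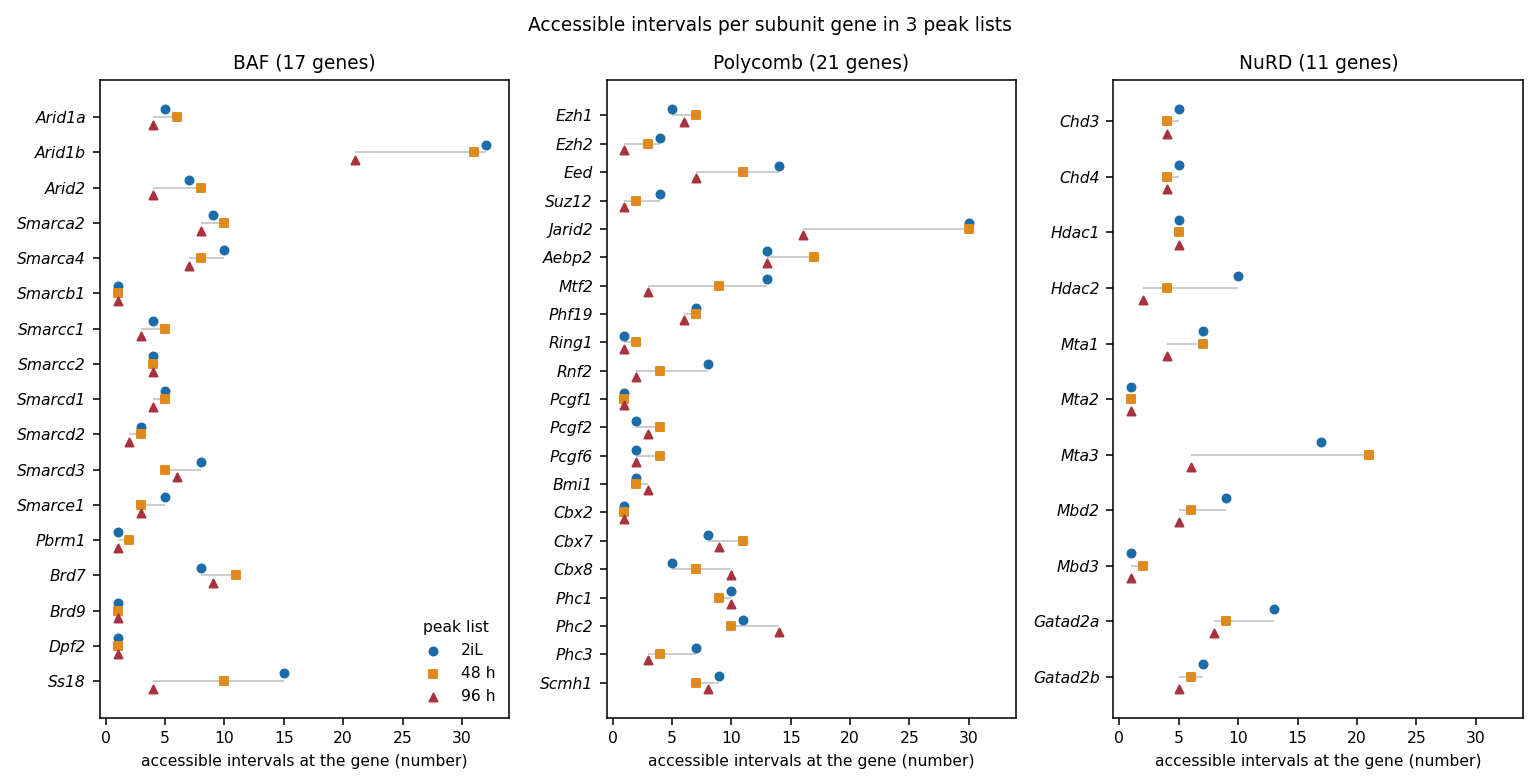
Number of accessible intervals assigned to each of the 49 genes (horizontal axis) in the 2iL (circles), 48 h (squares) and 96 h (triangles) peak lists, in 3 panels by complex. The triangles lie left of the circles for 28 genes, and by the widest distances for Jarid2, Arid1b, Ss18, Mta3 and Mtf2.

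An interval was called lost when no interval of the later list overlapped it by 1 bp or more, and gained when none of the earlier list did. Of the 356 intervals of the subunit genes in 2iL, 177 were lost by 96 h, or 49.7% (44.4–55.0%), where 42.9% of all intervals near genes were. The limits in parentheses are exact 95% Clopper–Pearson intervals; they cover only counting error, as if neighbouring sites were independent. Of the 248 intervals at 96 h, 75 were gained since 2iL, or 30.2% (24.6–36.4%), near the 32.5% of all intervals. The step from 2iL to 48 h was close to that of all genes, with 116 of 356 lost (32.6%, 27.7–37.7%, against 31.1%) and 98 of 335 gained (29.3%, 24.4–34.4%, against 29.4%). From 48 h to 96 h, 128 of 335 were lost (38.2%, 33.0–43.6%, against 29.7%) and 42 of 248 gained (16.9%, 12.5–22.2%, against 18.9%). This share lost in the second step came down to 28.4% when only the stronger part of each list, above its own median −log10 p, was used, with all intervals at 25.3%.

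The share lost was larger away from gene ends, as it was over all genes. Of the subunit intervals within 1 kb of a gene end, 7 of 57 (12.3%, 5.08–23.7%) were lost from 2iL to 96 h, against 10.9% of all such intervals. At 1 to 20 kb, 92 of 166 (55.4%, 47.5–63.1%) were lost, against 47.6%, and at 20 to 100 kb 78 of 133 (58.6%, 49.8–67.1%), against 54.3%. The lost 2iL intervals lay a median of 16.7 kb from the gene end and had a median fold of 6.97 and width of 637 bp. Those still listed at 96 h lay at 7.56 kb with 8.68 and 779 bp, and over all genes the same split gave 15.3 kb, 6.81 and 607 bp for lost and 6.19 kb, 9.87 and 769 bp for shared intervals. Lost sites near the subunit genes were thus the more distant and weaker ones, as they were near all genes.

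Close to gene ends the share gained lay above that of all genes. Of 62 subunit intervals within 1 kb of an end at 96 h, 15 were gained since 2iL, or 24.2% (14.2–36.7%), against 11.7% of all such intervals. They lay at 13 genes: Arid2, Smarcc2, Smarce1, Jarid2, Aebp2, Pcgf2, Pcgf6, Cbx8, Phc1, Chd3, Hdac1, Mta1 and Gatad2b. Of the 15, 11 were listed at 48 h, and only that of Mta1 overlapped a promoter window of its gene, among the genes with a window. Their folds ran from 2.25 to 7.96 with a median of 3.60, against 11.7 for the 47 that 2iL shared, so these were weak intervals that mostly lay away from the annotated starts.

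**Figure D3:**
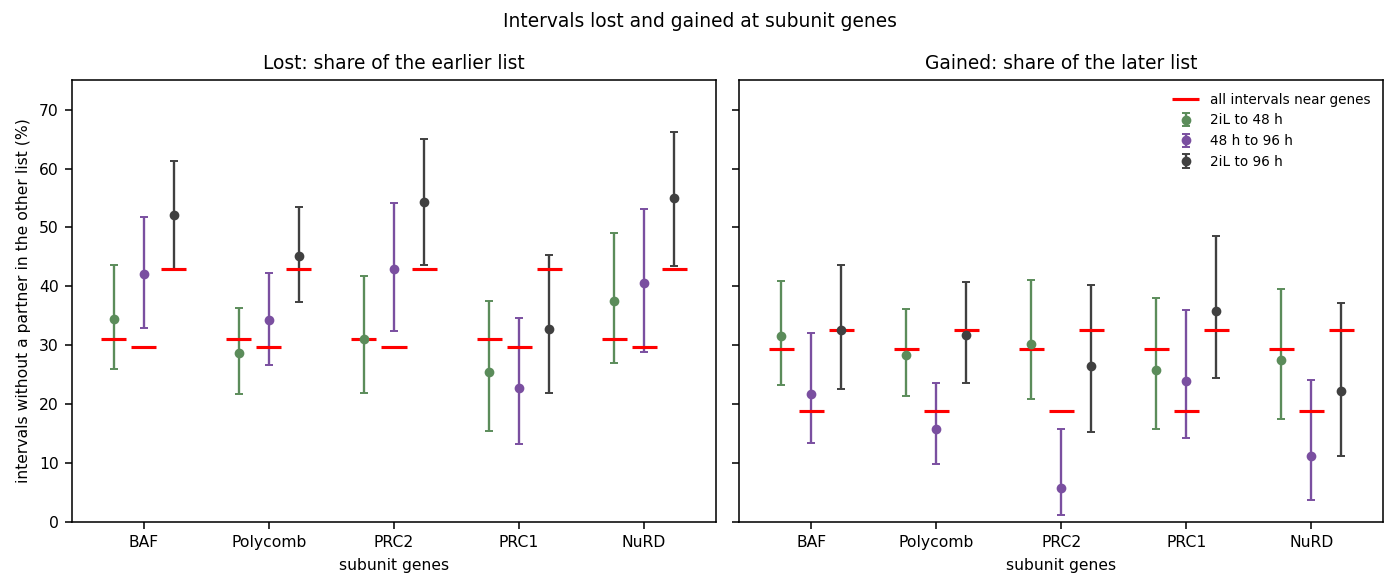
Share of intervals lost (left, % of the earlier list) and gained (right, % of the later list) at BAF, Polycomb, PRC2, PRC1 and NuRD genes for the 3 pairs of lists. Points are shares, bars are exact 95% intervals of counting error, and red lines are the shares over all intervals near genes. From 2iL to 96 h the PRC2 share lost (54.4%) lies above its line (42.9%) and the PRC1 share (32.8%) below it.

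Of 119 BAF intervals in 2iL, 62 were lost by 96 h, 19 of them at Arid1b and 11 at Ss18. The share lost was 52.1% (42.8–61.3%), and the 42.9% of all intervals lay just inside these limits. Without Arid1b, the gene with most intervals, it was 49.4% (38.5–60.4%). Of 114 intervals at 48 h, 48 were lost by 96 h (42.1%, 32.9–51.7%, against 29.7%), and from 2iL to 48 h 41 were lost (34.5%, 26.0–43.7%, against 31.1%). Gained shares were 36 of 114 at 48 h (31.6%), 18 of 83 from 48 h to 96 h (21.7%) and 27 of 83 from 2iL to 96 h (32.5%), where all intervals gave 29.4%, 18.9% and 32.5%. From 2iL to 96 h 11 of the 17 genes had fewer intervals, 1 (Brd7) had more and 5 had the same number, where 45.3% of all genes had fewer and 25.1% more. With intervals within 20 kb only, the BAF share lost by 48 h was 22.6% and that gained from 48 h to 96 h 13.0%. Both were then below all intervals (26.3% and 14.7%). In the stronger part of the lists 27 of 62 were lost by 48 h (43.5%, 31.0–56.7%, against 28.7%). From 48 h to 96 h 29.8% were lost there, against 25.3%. Which step stood further above all intervals thus depended on the setting.

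The genes with DNA-binding ARID subunits differed in size and in number of sites. Arid1b, a subunit of canonical BAF and a gene of 353 kb, had 32, 31 and 21 intervals in 2iL, 48 h and 96 h, with 19 lost and 9 gained from 2iL to 96 h. Its alternative partner in the complex, Arid1a, had 5, 6 and 4, and Arid2, which takes that place in PBAF, had 7, 8 and 4. Ss18, another subunit of canonical BAF, had 15, 10 and 4, with 11 lost and none gained. The strongest lost BAF interval was one of Ss18, of fold 23.9 in 2iL, 33.1 kb outside the gene, where the 48 h list still had an interval of fold 9.40. The next were an interval of fold 16.1 inside Arid2 (chr15:96396356-96397469), absent at 48 h, and one of fold 16.0 that lay 12.5 kb upstream of Arid1a (chr4:133768921-133769592), still listed at 48 h. Ss18 thus had a decline at both steps, whereas Arid1b had almost all of its decline after 48 h.

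The 2 alternative motor genes had similar totals. Smarca4 had 10, 8 and 7 intervals with 5 lost and 2 gained by 96 h, and Smarca2 had 9, 10 and 8 with 5 lost and 4 gained. At the start the fold was 11.7, 12.9 and 13.8 for Smarca4 and 11.6, 6.04 and 7.54 for Smarca2. One gained interval of Smarca2 (chr19:26814626-26815020, fold 13.1) lay 36.5 kb outside the gene and was listed at 96 h only. The strongest gained BAF interval lay inside Arid1b, 63.5 kb after its start (chr17:5058250-5058800, fold 16.4), and was listed from 48 h. The third, of fold 12.0, lay 55.5 kb upstream of Brd7 (chr8:88417244-88418008) and was listed at 96 h only.

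The core genes held few intervals each, and 13 of their 30 were lost by 96 h (43.3%, 25.5–62.6%), near the 42.9% of all intervals. Smarcb1 had 1 interval in every list. Smarcc2 had 4 in every list, with 2 lost and 2 gained from 2iL to 96 h. Smarcc1 had 4, 5 and 3, Smarcd1 5, 5 and 4 and Smarcd2 3, 3 and 2. Smarcd3 had 8, 5 and 6 and Smarce1 5, 3 and 3. The single Smarcb1 interval covered the start, with folds of 10.2, 9.60 and 11.1. Dpf2, of canonical BAF, also had 1 interval in every list, with folds at its window of 12.2, 13.2 and 14.3. Brd9, of the non-canonical complex, likewise had 1 in every list, just beyond the far end of the gene, with folds of 12.1, 10.5 and 16.2, while its start lay under another interval whose midpoint was nearest to a neighbouring gene. Of the PBAF genes, Pbrm1 had 1, 2 and 1 intervals and Brd7 8, 11 and 9, with start folds of 14.0, 16.3 and 17.7 at Brd7. Longer genes offer more sites to count, and these counts were not divided by gene length.

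The Polycomb genes as a whole stood close to all genes, with 71 of 157 intervals lost from 2iL to 96 h (45.2%, 37.3–53.4%, against 42.9%) and 38 of 120 gained (31.7%, 23.5–40.8%, against 32.5%). From 2iL to 48 h 45 of 157 were lost (28.7%, against 31.1%) and 43 of 152 gained (28.3%, against 29.4%), and from 48 h to 96 h 52 of 152 were lost (34.2%, 26.7–42.3%, against 29.7%) and 19 of 120 gained (15.8%, against 18.9%). With the lists cut to the same length, the last share lost was 24.4%, against 24.1% of all intervals. The genes of PRC2 and PRC1 are described apart below. The split into these complexes follows textbook membership but was added after the counts by gene had been seen, and the difference between them was not tested.

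The 8 PRC2 genes had 90, 86 and 53 intervals in the 3 lists, and the 13 PRC1 genes had 67, 66 and 67. The level PRC1 total was a balance of single genes. Cbx8 had 5, 7 and 10 and Phc2 11, 10 and 14, while Rnf2 had 8, 4 and 2 and Phc3 7, 4 and 3. From 2iL to 96 h, PRC2 genes lost 49 of 90 intervals (54.4%, 43.6–65.0%) and gained 14 of 53 (26.4%, 15.3–40.3%), and PRC1 genes lost 22 of 67 (32.8%, 21.8–45.4%) and gained 24 of 67 (35.8%, 24.5–48.5%). All intervals gave 42.9% lost and 32.5% gained, and the limits of the 2 shares lost overlapped slightly. The 2 sets also differed in distance, with 39 of the 90 PRC2 and 16 of the 67 PRC1 intervals at 20 to 100 kb. There 64.1% and 25.0% were lost, against 54.3% of all intervals. At 1 to 20 kb 57.5% and 47.2% were lost, against 47.6%, so the PRC1 share was near the background at that distance. In the first step PRC2 genes lost 28 of 90 (31.1%) and PRC1 genes 17 of 67 (25.4%), where all intervals gave 31.1%. In the second step they lost 37 of 86 (43.0%, 32.4–54.2%) and 15 of 66 (22.7%, 13.3–34.7%), against 29.7%, and gained 3 of 53 (5.66%, 1.18–15.7%) and 16 of 67 (23.9%, 14.3–35.9%), against 18.9%. All 8 PRC2 genes had fewer intervals at 96 h than at 48 h, while 6 of the 13 PRC1 genes had fewer and 5 more, and over all genes 43.6% had fewer and 18.0% more. In the stronger part of the lists the shares lost from 2iL to 96 h were 51.3% for PRC2 and 40.5% for PRC1, with all intervals at 39.1%, so there the PRC1 share was no longer below the background. By step, the shares lost in that part were 38.5% and 23.8% up to 48 h and 30.6% and 25.0% after it, so whether the 2 sets lay further apart before or after 48 h depended on this setting. The shares gained in that part were 10.7% for PRC2 and 12.1% for PRC1 from 48 h, with all intervals at 14.8%, and 32.1% and 24.2% from 2iL, with all intervals at 29.2%, so there PRC1 genes no longer gained clearly more than PRC2 genes in the second step and gained less from 2iL. The PRC2 share lost from 2iL to 96 h stood above all intervals under each of the 7 other settings tried, and without Jarid2, the gene with most intervals, it was 53.3%.

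**Figure D4:**
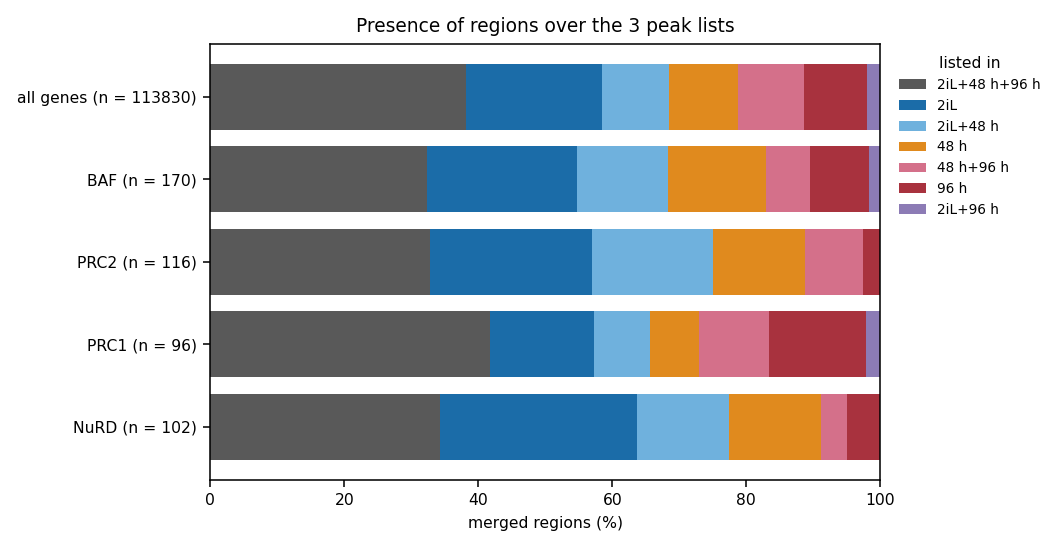
Share of merged regions (horizontal axis, %) by the lists in which they appear, for all genes and for BAF, PRC2, PRC1 and NuRD genes, with the number of regions in parentheses. PRC2 genes have 2.59% of their regions in the 96 h list only, and PRC1 genes have 14.6%. Of these 14 PRC1 regions, 5 are at Phc2 and 3 at Cbx8.

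Merging overlapping intervals of the 3 lists gave 484 regions at the subunit genes and 113830 near all genes. Over all genes 38.2% of regions were in all 3 lists, 20.2% in 2iL only, 10.1% in 2iL and 48 h, 10.2% at 48 h only, 9.93% at 48 h and 96 h, 9.43% at 96 h only and 1.86% in 2iL and 96 h but not between. At the subunit genes these shares were 34.7%, 22.9%, 13.6%, 12.8%, 7.23%, 7.64% and 1.03%. PRC2 genes had 21 of 116 regions in 2iL and 48 h but not at 96 h (18.1%, 11.6–26.3%), and 3 at 96 h only (2.59%, 0.537–7.37%). PRC1 genes had 8 of 96 (8.33%, 3.67–15.8%) and 14 of 96 (14.6%, 8.21–23.3%) in the same classes. Of these 14 regions at 96 h only, 5 were at Phc2 and 3 at Cbx8, so the PRC1 share rested largely on these genes. NuRD genes had 30 of 102 regions in 2iL only (29.4%, 20.8–39.3%) and 5 at 96 h only (4.90%, 1.61–11.1%), and BAF genes 38 of 170 (22.4%, 16.3–29.4%) and 15 (8.82%, 5.02–14.1%).

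At Ezh2, Suz12 and Eed, genes of the PRC2 core, the start was listed at 96 h and several sites away from it were not. Ezh2, the main methyltransferase of dividing cells, had 4, 3 and 1 intervals. Its start interval had folds of 14.5, 15.8 and 16.9, and the sites 7.16 kb and 13.4 kb upstream (chr6:47601881-47602504, fold 12.3, and chr6:47608090-47608681, fold 10.1 in 2iL) were listed at 48 h with folds of 8.04 and 8.35 and not at 96 h. Suz12, a scaffold of the enzyme, likewise had 4, 2 and 1 intervals, and only the start interval, with folds of 16.9, 15.8 and 15.7, was in all 3 lists. Eed, which binds the methyl mark, had 14, 11 and 7, with 8 lost and 1 gained by 96 h. A site inside Eed 5.15 kb after the start (chr7:89975453-89976192) had fold 12.1 in 2iL and 4.13 at 48 h, and was absent at 96 h. Ezh1, the methyltransferase paralogue associated with resting cells, differed from Ezh2 in having 5, 7 and 6 intervals, with 1 lost and 2 gained.

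The accessory PRC2 genes, which help the enzyme find its sites, held most of the intervals. Jarid2 had 30, 30 and 16 intervals, so its total was level to 48 h and then lower, although 11 intervals were lost and 13 gained in the first step. Its strongest lost intervals lay 70.5 kb and 42.5 kb upstream of its start (chr13:44659867-44660653, fold 14.8, and chr13:44687970-44688551, fold 14.3), the first absent and the second present at 48 h. A gained Jarid2 interval of fold 15.1 lay 24.4 kb after the start (chr13:44755272-44756034) and was listed from 48 h with fold 10.8. Mtf2 had 13, 9 and 3 intervals, with 10 lost and none gained, and the 3 at 96 h were those at the upstream start, one upstream of it and one beyond the end of the gene. Aebp2 had 13, 17 and 13 with 6 lost and 6 gained, among them the strongest gained Polycomb interval, of fold 19.0 at 96 h and 15.3 at 48 h (chr6:140733376-140734138), 55.3 kb outside the gene. Phf19 had 7, 7 and 6 with 1 lost and 1 gained. Within the accessory genes the net loss was therefore at Jarid2 and Mtf2.

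**Figure D5:**
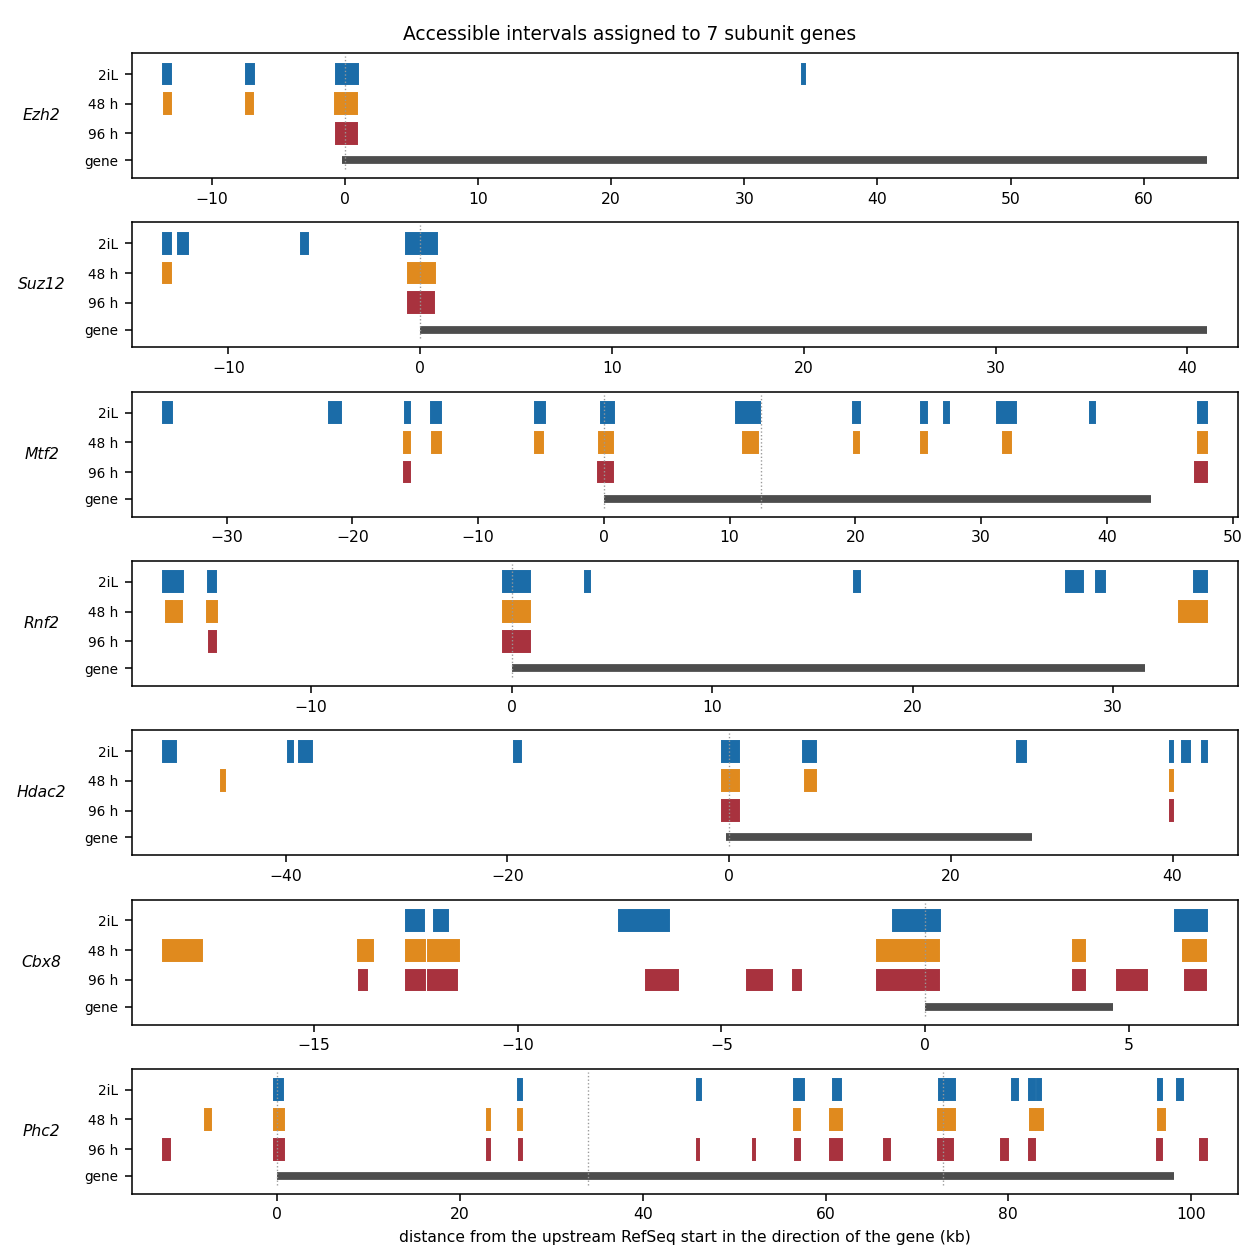
Accessible intervals assigned to 7 subunit genes in the 3 peak lists (rows), placed by their distance in kb from the upstream RefSeq start in the direction of the gene, with dotted lines at annotated starts and a grey bar for the gene. Ezh2, Suz12, Mtf2, Rnf2 and Hdac2 have 1 to 3 intervals at 96 h, while Cbx8 has 10 and Phc2 14.

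Among the PRC1 ligases, Rnf2 (RING1B), the main H2A ubiquitin ligase of embryonic stem cells, had 8, 4 and 2 intervals and Ring1 had 1, 2 and 1. The start of Rnf2 had folds of 13.9, 15.0 and 15.3. The 4 sites inside the gene with 2iL folds of 11.6, 8.42, 5.12 and 3.73 were listed in 2iL only. A site 16.9 kb upstream (chr1:151517379-151518356) had fold 12.0 in 2iL and 8.93 at 48 h and was not listed at 96 h. Rnf2 was the PRC1 gene with the largest net loss, 6 lost and none gained, followed by Phc3, with 4 lost and none gained.

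The PCGF genes, which set the type of PRC1, had few intervals that were mostly kept: Pcgf1 had 1 in each list, Pcgf2 2, 4 and 3, Pcgf6 2, 4 and 2, and Bmi1 2, 2 and 3. The start of Pcgf2 that had a window lay inside the gene. It had the lowest folds among the Polycomb starts, at 2.44, 3.52 and 3.36, while its width was 781, 1139 and 1918 bp. The start of Pcgf6, which belongs to a variant PRC1 active in embryonic stem cells, had folds of 9.90, 13.5 and 15.4. The start of Bmi1, which forms canonical PRC1, had folds of 5.40, 3.77 and 3.74.

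Of the chromobox genes, Cbx8 had the largest net gain of all 49 genes, with 5, 7 and 10 intervals, none of the 5 lost by 96 h and 5 of the 10 gained. The gained sites were weak, with folds of 2.19 to 3.36 at 96 h, and 2 of them were listed at 48 h. The start of Cbx8 had folds of 13.7, 7.40 and 7.09 in the 3 lists, and its width was 1162, 1517 and 1527 bp. Cbx2, the neighbouring gene on chromosome 11, had 1 interval in each list. Cbx7, the predominant CBX protein of embryonic stem cells, had 8, 11 and 9, with 2 lost and 3 gained. The start of Cbx7 that had a window lay inside the gene, with folds of 5.65, 5.66 and 7.48. Around Cbx8, then, weak intervals were added to those of 2iL, and all 5 sites of 2iL were still listed at 96 h.

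The polyhomeotic genes and Scmh1, whose SAM domains link PRC1 complexes into chains, were divided. Phc2 had 11, 10 and 14 intervals with 3 lost and 6 gained, Phc1 had 10, 9 and 10 with 1 lost and 2 gained, and Phc3 had 7, 4 and 3 with 4 lost and none gained. The start of Phc2 had folds of 21.4, 17.7 and 18.4, the first of them the highest of any start of the subunit genes in 2iL. The start interval of Phc1 had a low fold, 3.36, 4.55 and 6.01, and a width of 575, 2170 and 1802 bp. Scmh1 had 9, 7 and 8 intervals, with 5 lost and 4 gained. It held the strongest lost interval of all 49 genes, of fold 31.8 in 2iL, inside the gene (chr4:120432428-120433201). At 48 h this site was still listed, with fold 12.9, and at 96 h it was not. A gained Scmh1 interval of fold 13.8 lay 45.0 kb upstream (chr4:120359833-120360870) and was listed from 48 h.

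At the NuRD genes 56.2% of the 2iL number of intervals was listed at 96 h, against 69.7% at BAF and 76.4% at Polycomb genes. Of the 11 genes, 8 had fewer intervals at 96 h than in 2iL, 3 had the same number and none had more, where 45.3% of all genes had fewer and 25.1% more. From 2iL to 96 h 44 of 80 were lost (55.0%, 43.5–66.2%) and 10 of 45 gained (22.2%, 11.2–37.1%), where all intervals gave 42.9% and 32.5%. In the first step 30 of 80 were lost (37.5%, against 31.1%) and 19 of 69 gained (27.5%, 17.5–39.6%, against 29.4%). From 48 h to 96 h 28 of 69 were lost (40.6%, 28.9–53.1%) and 5 of 45 gained (11.1%, 3.71–24.1%), against 29.7% and 18.9%. That share lost rested on Mta3: without it 13 of 48 were lost (27.1%), below the 29.7% of all intervals, and in the stronger part of the lists it was 28.1%, against 25.3%. The NuRD shares gained in that part lay above those of all intervals, at 18.5% against 14.8% from 48 h and 33.3% against 29.2% from 2iL. The NuRD share lost up to 48 h was 27.8% there, against 28.7%.

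Mta3 had 17, 21 and 6 intervals, with 10 gained and 6 lost in the first step and 15 lost and none gained in the second. The other MTA genes, which encode the scaffolds that hold the deacetylases, had 7, 7 and 4 (Mta1) and 1 in each list (Mta2). The start of Mta2 had folds of 10.3, 14.5 and 16.6. A lost interval of fold 12.2 lay 6.19 kb outside Mta3 (chr17:83699398-83700549) and was still listed at 48 h, and a gained one of fold 12.5 lay inside it (chr17:83772696-83773062) and was listed from 48 h. Of the 3 MTA genes, then, Mta3 held most of the lost sites, and Mta1 was the one with a newly listed start, shown above by sequence.

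The deacetylase genes formed a contrasting pair. Hdac1 had 5 intervals in each list, with 1 lost and 2 gained by 96 h. Hdac2 had 10, 4 and 2, with 8 lost and none gained. Of the 8, 7 were already absent at 48 h, among them a site 38.2 kb upstream (chr10:36935728-36936951, fold 10.6). The eighth, 7.29 kb after the start (chr10:36981247-36982419), had fold 14.9 in 2iL and 9.52 at 48 h and was the strongest lost NuRD interval. Over the same time the start of Hdac2 had folds of 13.6, 12.7 and 13.4 and widths of 1566, 1543 and 1506 bp.

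The motor genes Chd3 and Chd4 had identical totals of 5, 4 and 4 intervals, each with 2 lost and 1 gained from 2iL to 96 h. The start of Chd4, the main NuRD motor of stem cells, had folds of 3.74, 4.41 and 5.92 and widths of 802, 1873 and 1898 bp. Of the MBD pair, Mbd3, needed for NuRD assembly in embryonic stem cells, had 1, 2 and 1 intervals. Its start folds were 12.4, 11.2 and 13.4, and Mbd2 had 9, 6 and 5 intervals with 6 lost and 2 gained. Gatad2a had 13, 9 and 8 with 5 lost and none gained, and Gatad2b 7, 6 and 5 with 4 lost and 2 gained. Gatad2a has 2 annotated starts, and the upstream one had folds of 15.2, 15.0 and 16.4. The internal one had folds of 11.7, 19.2 and 21.9, the last 2 being the highest of any start of the subunit genes in their lists.

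Of the 32 subunit genes with at least 5 intervals in 2iL, 7 had 50% of that number or fewer at 96 h: Ss18, Eed, Mtf2, Rnf2, Phc3, Hdac2 and Mta3. Over all genes 23.7% of 6152 did, so a count of 7 lies near the background, and the minimum of 5 was set after the values were seen.

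From 2iL to 96 h, 27 of 73 intervals were lost at 11 further BAF genes (37.0%, 26.0–49.1%), 72 of 168 at 21 further Polycomb genes (42.9%, 35.3–50.7%) and 23 of 68 at 7 further NuRD genes (33.8%, 22.8–46.3%). At 29 other remodeller and histone modifier genes 97 of 207 were lost (46.9%, 39.9–53.9%), and of all intervals 42.9% were. Fewer intervals at 96 h than in 2iL were listed at 7 of the 11, 14 of the 21, 3 of the 7 and 16 of the 29 genes, and more at 1, 2, 4 and 4, where 45.3% of all genes had fewer and 25.1% more. The shares lost at the further BAF and NuRD genes lay below those at the 17 BAF and 11 NuRD genes described above, with overlapping limits.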

How the data were processed

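ATAC-seq libraries of 6 samples (2 in each of 3 groups) had been processed by the submitters with bcl2fastq 2.20.0.422, BWA, SAMtools and Picard on mm10, per the submitters' processing notes; the peak caller is not given in the sources used here. The authors deposited 1 narrowPeak list per group, pooled over samples A and B, in which each summit has a fold enrichment (a linear ratio) and a −log10 p. Sequencing depth per sample is unknown, since the deposited lists hold no counts, and 0 columns of other samples were found. Summits of one interval were merged and the values of the summit with the highest −log10 p kept. Midpoints were assigned to the nearest protein-coding gene end within 100 kb (RefSeq, GRCm38.p6; all 49 symbols matched), and lists were compared by overlap of at least 1 bp. Shares have exact Clopper–Pearson 95% intervals (scipy 1.17.1; Python 3.11.15, pandas 2.3.3, numpy 2.4.6, matplotlib 3.10.9). The overlap code was tested on the 2iL list after a random part was removed and the rest shifted. The assignment code was tested on intervals of that list against a plain search. No difference between conditions could be tested.

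The genes, lists and settings were chosen with earlier results of these data known; PRC2, PRC1 and all 49 genes were added as sets, and marker genes were chosen, after the files were seen. Genes were named by rule: per complex the 4 with most intervals, the 4 with the largest net loss and net gain, those without an interval near an end in any list, sets of paralogues, and the 3 strongest lost and gained intervals. NRF1 and YY1 were searched by 8 and 9 letters, shorter than first set down. Promoter sequences are from RefSeq. Alternatives were the stronger part of each list, lists of equal length, overlap by 50% of the shorter interval, the summit in place of the midpoint, 20 kb in place of 100 kb, the gene body first, and leaving out the gene with most intervals.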

Additional observations from a re-analysis of the deposited data

How the results depend on the processing

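No paired analysis was possible because each deposited list pools samples A and B, and for the same reason neither sample could be left out. Over 42 results and 264 alternative values, 251 moved by less than the counting interval of the main value and 13 moved by more. In the stronger part of each list, the shares lost from 48 h to 96 h were 29.8% (BAF), 28.1% (NuRD), 30.6% (PRC2) and 28.4% (all 49 genes), against 25.3% of all intervals, and the shares gained by PRC1 genes were 12.1% from 48 h to 96 h and 24.2% from 2iL to 96 h, then below all intervals (14.8% and 29.2%). The shares lost from 2iL to 48 h in that part were 43.5% (BAF), 38.5% (PRC2), 27.8% (NuRD) and 34.6% (all 49 genes), against 28.7%. These stayed within the counting intervals of their main values. With lists of equal length, 24.4% (Polycomb) and 29.0% (all 49 genes) were lost from 48 h to 96 h, against 24.1%. Within 20 kb, BAF genes had 22.6% lost from 2iL to 48 h and 13.0% gained from 48 h to 96 h, and all 49 genes had 27.4% lost from 2iL to 48 h and 44.4% from 2iL to 96 h. Without Mta3, 27.1% of NuRD intervals were lost from 48 h to 96 h. Apart from what each setting leaves out by construction, the cause was not tested. The shares lost from 2iL to 96 h stayed above all intervals under each of the 7 settings for BAF, NuRD, PRC2 and all 49 genes. With no depth per sample, an unlisted site cannot be told from one under the calling threshold.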

Other observations

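Some genes outside the 49 went against the general decline in intervals, chosen after their values were seen. Dpf3, which encodes an alternative BAF subunit used in other cell types, had 6, 13 and 17 intervals in the 2iL, 48 h and 96 h lists, with none lost and 11 gained from 2iL to 96 h. Bcor, a subunit of a variant PRC1, had 26, 30 and 36, with 4 lost and 13 gained. Chd5, an alternative NuRD motor known from neurons, had 6, 10 and 10, and Kdm6b, a demethylase of the mark laid by PRC2, had 5, 9 and 10, each with none lost and 4 gained. On the other side, Baz2b had 9, 7 and 2 intervals and Auts2, of another variant PRC1, had 23, 24 and 12. No test was possible for any of these values.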
